A study of Mus musculus with 13 samples.

Results

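Genes of the mitogen-activated protein (MAP) kinase cascade and of its inhibitors were examined in peak lists from chromatin immunoprecipitation and sequencing (ChIP-seq) of a mouse gonadotrope cell line. Members were the protein-coding genes whose symbol begins with Mapk, Map2k, Map3k, Map4k, Dusp, Spry or Spred and which are the nearest gene to a peak within 100 kb. There were 77 such genes among 15377 protein-coding genes with a peak in that window. They comprised 12 MAP kinases, 9 MAP kinase-associated proteins, and, by symbol, 7 Map2k, 17 Map3k (Map3k7cl among them) and 4 Map4k genes. The rest were 10 MAP kinase phosphatases, 11 other dual-specificity (Dusp) phosphatases, 4 genes whose symbol begins with Spry and 3 Spred genes. The rule goes by symbol: of the 4 Spry-named genes only Spry1 encodes a Sprouty inhibitor, and Spryd3, Spryd4 and Spryd7 encode proteins named for a SPRY domain. The p38 kinase gene Mapk14 and the Sprouty genes Spry2 and Spry4 met the rule in none of the tables and were not analysed here.

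MAP kinase signalling runs through tiers of kinases: Map4k enzymes act on Map3k enzymes, which phosphorylate Map2k enzymes, and these phosphorylate the MAP kinases of the ERK, JNK and p38 groups. Dual-specificity phosphatases remove those activating phosphates, and Sprouty and Spred proteins inhibit the path from receptors through Ras to ERK, so that many of these inhibitors act as feedback brakes. In gonadotropes the cascades carry the signal of gonadotropin-releasing hormone, while activin acts through the transcription factors SMAD2 and SMAD3.

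All samples were LβT2 cells, a mouse pituitary line of gonadotrope type, stably transduced with a lentivirus that carries GFP and a doxycycline-inducible FLAG-tagged mouse FOXL2, a forkhead factor of gonadotropes. After 24 h of recovery in 10% serum, every plate received doxycycline for 48 h and 2 h in 2% serum, and then got vehicle or activin A (1 nM, 1 h) ahead of fixation in 1% formaldehyde. FOXL2 values therefore describe a tagged, induced protein, which both treatments carry, in a single cell line. Antibodies to SMAD2/3, to FLAG (here FOXL2) and to H3K27ac, the lysine 27 acetylation of histone H3 that marks active regulatory DNA, each served for 2 vehicle and 2 activin samples, every one a pool of 3 plates. Nothing in the labels says that replicates were separate cultures, so the spread between them may be technical.

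The reads behind each list are not known from peak files, and list lengths stand in for depth. SMAD2/3 lists held 605 and 144 peaks for vehicle against 7784 and 5970 for activin, FOXL2 lists 83834 to 97701 and H3K27ac lists 38995 to 41763. Acetylation within 1 kb of the start was found in all 4 libraries at 6 of 7 gonadotrope marker genes, Fshb being the exception, and at none of the markers of other pituitary lineages that the tables hold. A longer list and a larger number of occupied sites cannot be told apart from these files.

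SMAD2/3 was almost absent from the cascade genes with vehicle and was found near more of them with activin. In the vehicle libraries 1 and 1 member genes had a SMAD2/3 peak, in both cases Spred1, and in the activin libraries 17 and 10 did. Member peaks numbered 1 and 1 for vehicle against 20 and 12 for activin, a log2 difference of 3.95, while the pooled SD was 0.368 (exact permutation p = 0.33, two-sided, the smallest value 2 against 2 libraries allow). The groups did not overlap. As a share of all SMAD2/3 peaks near protein-coding genes, however, members made up 0.376% and 1.64% for vehicle against 0.57% and 0.442% for activin, and these shares overlapped.

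Merging the peaks of the 4 libraries gave 22 SMAD2/3 regions at members, and 9 of them were activin-only, meaning that a peak was called in each activin library and in no vehicle library. The share was 40.9%, beside 54.1% of all SMAD2/3 regions near protein-coding genes. None was vehicle-only (background 0.051% of regions and 0.013% of genes), 1 was present in all 4 libraries (background 1.4%), and the other 12 had a peak in a single activin library. Of those 12, activin replicate 1, the longer list, held 10. By gene, 9 of 77 members (11.7%) had a region of both activin libraries, beside 11.2% of all protein-coding genes, so the frequency was close to that of genes in general. Activin-only regions fell to 8 members (10.4%, background 10.4%), and a region of both vehicle libraries to 1 (1.3%, background 0.384%).

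The 9 genes were spread over inhibitors and upstream kinases. Among 10 MAP kinase phosphatases Dusp1, Dusp2 and Dusp10 had such a region, among 3 Spred genes Spred1, among 17 Map3k genes Map3k5 and Map3k15, among 7 Map2k genes Map2k6, among 4 Map4k genes Map4k3, and among the Spry-named genes Spryd7. None of the 12 MAP kinases and none of the 9 associated proteins had one. Over all protein-coding genes the share was 11.2%, and roles this small can hold none at that share. The 12 regions of a single activin library included 4 at MAP kinases (Mapk6, Mapk8, Mapk10 and Mapk13) and 1 at an associated protein (Mapkap1).

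**Figure D1:**
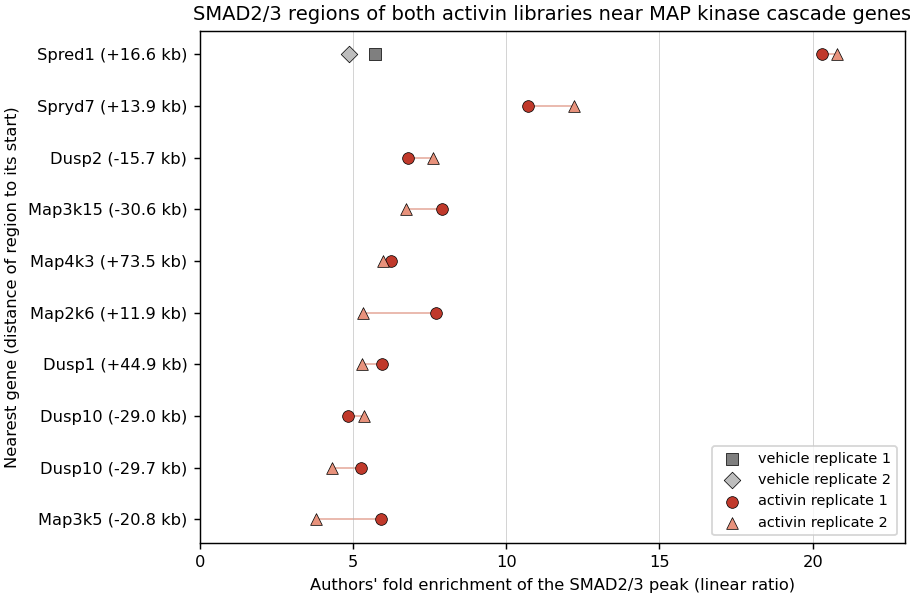
The authors' fold enrichment (linear ratio, horizontal axis) of the 10 SMAD2/3 regions found in both activin libraries, by nearest gene and signed distance to its start; each point is the peak of 1 library and a missing point means no peak was called. Spred1 alone has vehicle points, at 5.73 and 4.88, and has the highest activin points, at 20.3 and 20.8.

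Spred1 (ENSMUSG00000027351), a Sprouty-related inhibitor of Ras-to-ERK signalling that works with the Ras-inactivating protein neurofibromin, carried the strongest of these regions. It lay in an intron, 16.6 kb downstream of the start, at chr2:117137952-117138555 (GRCm38/mm10, as all coordinates here). The authors' fold enrichment was 5.73 and 4.88 for vehicle against 20.3 and 20.8 for activin. The percentile rank of the peak within its own list (100 for the strongest by −log10 q) was 78.5 and 50 for vehicle against 99.7 and 99.6 for activin. Both activin values lay above both vehicle values on either scale. The ranks come from lists of 605 and 144 peaks for vehicle and 7784 and 5970 for activin. Ranks in lists of such unlike length are not directly comparable.

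FOXL2 and acetylation were recorded at the same Spred1 intron. The FOXL2 region there, chr2:117137935-117138586, had fold enrichments of 16.2 and 13.7 for vehicle against 28.5 and 26.1 for activin, with percentile ranks of 91.1 and 91.1, then 99 and 99.1. An H3K27ac region, chr2:117137377-117139402, had no peak in either vehicle library and fold enrichments of 3.34 and 4.38 with activin, at ranks of 65 and 75.7. It was the only activin-only acetylated region of a member that overlapped a SMAD2/3 region of both activin libraries. Of the 9 activin-only acetylated regions at members it was also the only one left when both activin peaks had to reach a −log10 q of 5, and by that measure 0 of the 4 vehicle-only regions were left. Such losses were general: over all H3K27ac regions near protein-coding genes the activin-only share was 5.33% at the authors' threshold and 0.264% by that measure, and the vehicle-only share 5.35% and 0.218%.

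Further down the same gene, 23.6 kb from the start, FOXL2 had an activin-only region, chr2:117144791-117145569, with fold enrichments of 15.1 and 17.1 and ranks of 85.4 and 89.9. A SMAD2/3 peak of activin replicate 1 alone lay inside it, and a weak activin-only H3K27ac region (fold enrichments 2.55 and 2.78) lay beside it at 23.1 kb. In all, Spred1 had 11 FOXL2 regions, of which 5 were present in all 4 libraries and 3 were activin-only. The acetylated region upstream of the start, centred at -1.22 kb, had ranks of 86.4 and 83.8 for vehicle against 83.1 and 83.6 for activin. The region just inside the gene, at 0.379 kb, had ranks of 78.3 and 52.1 for vehicle against 75.6 and 79.1 for activin, which overlap. Acetylation around the start was thus called in every library, and acetylation in the intron was called with activin alone.

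**Figure D2:**
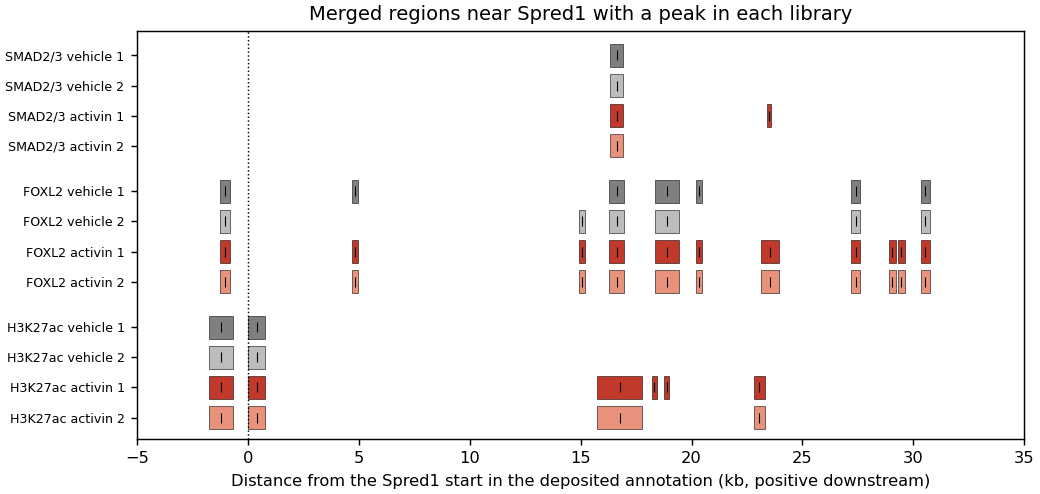
Merged SMAD2/3, FOXL2 and H3K27ac regions near Spred1, drawn to scale as distance from the start in the deposited annotation (kb, horizontal axis); each row is 1 library and a box is drawn where that library has a peak in the region, spanning the whole merged region, with a tick at its centre. The boxes at 16.9 kb and 23.1 kb in the H3K27ac rows appear in the activin libraries only.

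The phosphatase Dusp2 (ENSMUSG00000027368), a nuclear enzyme that inactivates MAP kinases, had an intergenic SMAD2/3 region 15.7 kb upstream of the start, at chr2:127320710-127321103. It had no vehicle peak and activin fold enrichments of 6.79 and 7.61, at ranks of 86 and 86.3. Unlike the other 9 regions it did not overlap a FOXL2 region of both activin libraries, since FOXL2 was called there in vehicle replicate 1 and activin replicate 1 only, with fold enrichments of 3.02 and 3.14. H3K27ac covered the site in all 4 libraries (chr2:127319208-127322116), with ranks of 76.9 and 77.1 for vehicle against 85.6 and 87 for activin. The acetylated region at the Dusp2 start itself, centred at -0.624 kb, had ranks of 44.2 and 24.5 for vehicle against 68.9 and 71.7 for activin, again without overlap of the groups.

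Dusp1 (ENSMUSG00000024190), an immediate early phosphatase of JNK, p38 and ERK, had its SMAD2/3 region 44.9 kb downstream of the start, at chr17:26462685-26462915, intergenic, with activin fold enrichments of 5.93 and 5.28. FOXL2 at this site was not called in vehicle replicate 1 and had fold enrichments of 3.82 in vehicle replicate 2 and 4.41 and 8.3 with activin. No H3K27ac region of both activin libraries overlapped it. The Dusp1 start was acetylated in all 4 libraries, with ranks of 72.8 and 79.4 for vehicle against 70.6 and 76.3 for activin, which overlap.

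Dusp10 (ENSMUSG00000039384), a phosphatase of JNK and p38, had 2 neighbouring SMAD2/3 regions, chr1:183983552-183983730 and chr1:183984136-183984400, 29.7 and 29 kb upstream of the deposited start. The RefSeq start, used for the Dusp10 promoter window below, lies 21079 bp further downstream. Activin fold enrichments were 5.27 and 4.32 for the first SMAD2/3 region and 4.82 and 5.35 for the second, with no vehicle peak at either. Both lay inside a single FOXL2 region, chr1:183983153-183984560, with fold enrichments of 62 and 55 for vehicle against 57.3 and 51.4 for activin. Its ranks round to 100 in every list, at places 14 and 12 from the top for vehicle and 11 and 10 for activin. No other FOXL2 region of a member had fold enrichments as high, and the fold enrichments of the groups overlap there. H3K27ac had a weak vehicle-only region between the SMAD2/3 peaks, with fold enrichments of 3.35 and 2.93.

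The upstream kinases, like Dusp1 and Dusp10, had SMAD2/3 regions of middle or low rank. Mean activin ranks were 55.6 at Map2k6, 57 at Map4k3, 14.1 at Map3k5 and 66.7 at Map3k15. They were 50.6 at Dusp1 and 26.4 at the higher ranked Dusp10 region. Most of the kinase regions lay at strong FOXL2 sites, as those of Dusp10 did. In an intron of Map2k6 (ENSMUSG00000020623), which encodes an activator of p38, SMAD2/3 at chr11:110489159-110489389 had activin fold enrichments of 7.69 and 5.32. FOXL2 over it had 41.8 and 33.4 for vehicle against 37.8 and 32 for activin, which overlap. The region in an intron of Map4k3 (ENSMUSG00000024242), chr17:80654490-80654734, had 6.25 and 5.96 for SMAD2/3 and, for FOXL2, 42.8 and 34.2 for vehicle against 46.7 and 44.3 for activin.

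Map3k5 (ENSMUSG00000071369) encodes the stress-activated kinase ASK1. Its region at chr10:20103855-20104194, 20.8 kb upstream of the deposited start and annotated to an intron of a Map3k5 transcript, was the weakest of the 10, with SMAD2/3 fold enrichments of 5.91 and 3.8 and ranks of 27.5 and 0.737. The RefSeq start lies 190275 bp upstream of the deposited one, so the region is downstream of the RefSeq start. FOXL2 had high fold enrichments there in every library, with 46.4 and 44.3 for vehicle against 52.4 and 47.1 for activin. None of the regions at Map2k6, Map4k3 and Map3k5 overlapped H3K27ac of both activin libraries.

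The SMAD2/3 regions assigned to Map3k15 (ENSMUSG00000031303) and Spryd7 (ENSMUSG00000021930) were acetylated in all 4 libraries. Map3k15 encodes a kinase of the ASK group, but its region, chrX:159957583-159957985, lies 30.6 kb upstream in an intron of another gene, Sh3kbp1. SMAD2/3 had activin fold enrichments of 7.91 and 6.72 there. FOXL2 was not called in vehicle replicate 1 and had 4.56 in vehicle replicate 2 and 15.7 and 14.4 with activin. H3K27ac ranks were 43.5 and 14.7 for vehicle against 70.7 and 57.2 for activin, so the groups did not overlap.

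In an intron of Spryd7, chr14:61542724-61543061, SMAD2/3 had activin fold enrichments of 10.7 and 12.2. FOXL2 ranks were 95.5 and 97 for vehicle against 98.1 and 98.8 for activin. The acetylated region over it went from ranks of 40.2 and 30.7 to 71.8 and 72.1. After Spred1 this was the SMAD2/3 region with the highest mean rank at a member.

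All 10 regions were distal by the deposited starts. Their median distance to the deposited start was 24894 bp, beside 16256 bp for 2337 SMAD2/3 regions of both activin libraries near protein-coding genes, and 0 of 10 lay within 10 kb, beside 35.7%. RefSeq starts can give other distances. A RefSeq start of Map2k6 lies 1963 bp downstream of the deposited one, and the centre of the Map2k6 region is within 10 kb of it. The distances of the 10 regions were not recounted from RefSeq starts. They lay in introns in 6 cases and between genes in 4. Their mean ranks ran from 14.1 to 99.7 with a median of 56.3, beside a median of 56.9 for the background. FOXL2 regions of both activin libraries overlapped 9 of 10 (90%, Wilson 95% interval 59.6% to 98.2%), beside 79.9% of the background. H3K27ac regions of both activin libraries overlapped 4 of 10 (40%, 16.8% to 68.7%), beside 79.6%, and beside 78% when the background was limited to regions beyond 10 kb from a start. The intervals cover counting error only, and the difference was not tested over samples.

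The summits of the factors lay close together at these sites. From the SMAD2/3 summit to the nearest FOXL2 summit the median distance was 24 bp in the first activin replicate and 51.5 bp in the other, and 9 and 7 of the 10 distances were within 100 bp. The background medians were 39 and 40 bp, with 71% and 70.6% within 100 bp.

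FOXL2 was found at most cascade genes before activin was given, about as often as at genes in general. Members had 303 FOXL2 regions, and 43 of 77 members (55.8%, background 55.6%) had a region present in all 4 libraries, while 16 had none. Member peaks numbered 207 and 204 for vehicle against 227 and 242 for activin, a log2 difference of 0.19, while the pooled SD was 0.047 (exact permutation p = 0.33, two-sided, the smallest possible). The groups did not overlap, but as a share of FOXL2 peaks near protein-coding genes the members' part was 0.542% and 0.526% for vehicle against 0.535% and 0.576% for activin, which overlap. Regions of both vehicle libraries were found at 48 members (62.3%, background 60.6%) and of both activin libraries at 47 (61%, background 64.8%).

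Among the 303 regions, 140 were present in all 4 libraries (46.2%, background 47%), 33 were activin-only (10.9%, background 8.32%) and 10 were vehicle-only (3.3%, background 3.36%). By gene, activin-only regions occurred at 21 members (27.3%, background 21.6%) and vehicle-only regions at 7 (9.09%, background 10.3%). These shares were near those of all genes. FOXL2 regions were unevenly spread: 9 members with more than 10 regions each held 146 of them, and the median member had 2. The count goes by the nearest start, so that 21 of the 33 regions given to Dusp21 lie in the neighbouring gene Kdm6a.

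Percentile ranks at the 140 regions present throughout were compared next. Members ranked higher in both activin than in both vehicle libraries at 40 regions (28.6%, background 28.9%) and lower in both at 36 (25.7%, background 28.5%). At the 6 regions that overlapped SMAD2/3 of both activin libraries, 5 ranked higher with activin (background 52.1%) and 0 lower (background 20.1%). Among the 5 was the Dusp10 region, with mean ranks of 99.9859 for vehicle and 99.9901 for activin, while its fold enrichments overlapped. With ranks taken by fold enrichment, 66.7% of the 6 ranked higher. Away from the SMAD2/3 regions it was 35 higher and 36 lower of 134, beside 27.5% and 29%. These 6 sites had ranks of 91.1 or more in each vehicle list, and their median change in rank was 0.543 points, beside 2.87 in the background.

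Larger gains were seen at regions where SMAD2/3 was called in a single activin library, a class that was set up after the values were seen. Of 10 such FOXL2 regions at members, 4 were activin-only (40%, background 9.26%), at Spred1, Spred2, Dusp16 and Map4k4, and 6 were present in all 4 libraries. Of these 6, 5 ranked higher with activin (83.3%, background 47.4%), with a median gain of 24.1 points, beside 2.68. The SMAD2/3 peaks behind this class had ranks from 1.97 to 64.9 within their own lists. At the 284 regions without an activin SMAD2/3 peak the corresponding counts were 30 higher and 36 lower of 128, and 29 were activin-only (10.2%, beside 8.31%).

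The FOXL2 region in Map4k3 at 27.8 kb, named after its values were seen, had the largest gain of any member. Its fold enrichments were 3.45 and 4.93 for vehicle against 14.1 and 13.2 for activin, and its ranks went from 2.11 and 29.4 to 79.6 and 79.3. A SMAD2/3 peak was called there in activin replicate 2 alone. In Mapk10, the gene of the neuronal JNK isoform, the region at 94.4 kb went from ranks of 21.1 and 37.8 to 70.5 and 81.3, with a SMAD2/3 peak in activin replicate 1 alone. Large gains were not confined to such sites. Of the 10 largest gains of mean rank, 3 lay at a SMAD2/3 peak. Without one, Mapk10 at 72.1 kb went from 31.1 and 10.7 to 80.7 and 69.7. The Dusp21 region at 35.4 kb, also without one, went from 24 and 13.3 to 75.5 and 73.8.

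Among the core kinases Map2k4, an activator of JNK and p38, had FOXL2 gains without any SMAD2/3 peak. At 13.9 kb in its intron fold enrichments were 20.5 and 16.8 for vehicle against 36.4 and 31.5 for activin, and at 10.6 kb they were 7.25 and 4.94 and then 18.2 and 13.2. In Mapk9, a JNK gene, the region at 18 kb went from 5.62 and 5.76 to 10.3 and 10.1. Map2k3, an activator of p38, went the other way at 28.6 kb, with ranks of 40.7 and 47.3 for vehicle against 17.4 and 19.1 for activin. Spred2, a relative of Spred1, also had a region that ranked lower, at -8.29 kb, from 40 and 43.3 to 7.52 and 7.52, beside regions at 15.1 and 50.5 kb with ranks above 90 in every library.

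**Figure D3:**
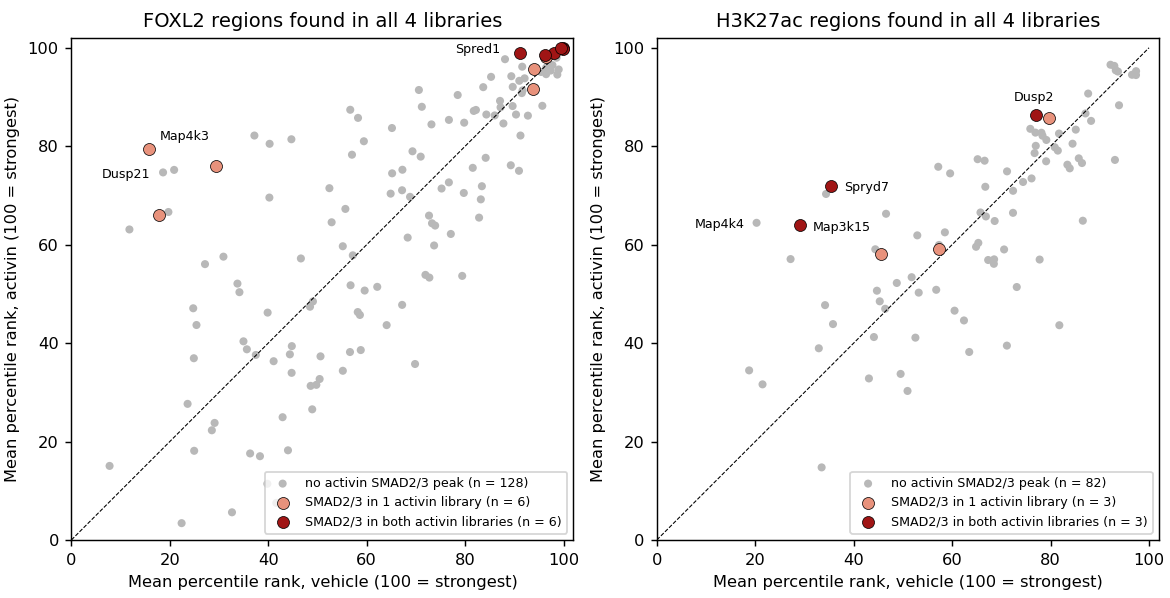
Mean percentile rank (100 for the strongest peak) of member regions present in all 4 libraries, over the 2 vehicle libraries (horizontal axis) and the 2 activin libraries (vertical axis), for FOXL2 on the left and H3K27ac on the right; each point is a region, colour gives the number of activin libraries with a SMAD2/3 peak in it, and the dashed line marks equal ranks. The grey regions lie on both sides of the line, while the SMAD2/3 regions at Map3k15, Spryd7 and Dusp2 on the right lie above it.

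H3K27ac was present at most cascade genes and changed little in number. Member peaks numbered 130 and 107 for vehicle against 127 and 129 for activin, a log2 difference of 0.12 that did not exceed the pooled SD of 0.141 (two-group exact permutation p = 1, two-sided). Regions of both vehicle libraries were found at 61 members (79.2%, background 65.9%) and of both activin libraries at 60 (77.9%, background 64.4%). Of 158 regions, 88 were present in all 4 libraries (55.7%, background 51.4%), 9 were activin-only (5.7%, background 5.33%) and 4 were vehicle-only (2.53%, background 5.35%). By gene this was 6 members with an activin-only region (7.79%, background 8.15%) and 4 with a vehicle-only region (5.19%, background 8.47%).

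At the 88 constant regions 21 ranked higher and 21 lower with activin (23.9% each, background 25.9% and 28.7%). The 3 that overlapped SMAD2/3 of both activin libraries, at Dusp2, Map3k15 and Spryd7, all ranked higher (background 67.4%) and 0 ranked lower (background 14%). Of the 85 others, 18 ranked higher (background 21.7%) and 21 lower (background 30.1%). With 3 regions the count says little by itself, and the direction is that of most SMAD2/3 sites in these lists.

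Some acetylated regions changed rank without a SMAD2/3 peak, and the following were named after their values were seen. The region at -3.01 kb of Mapk15, an atypical MAP kinase gene, had ranks of 81.5 and 82.1 for vehicle against 45.7 and 41.5 for activin. The Map3k12 start, of a JNK pathway kinase of neurons, went from 76.7 and 78.9 to 54 and 59.9, and the Spred3 start from 76.7 and 65.6 to 27.5 and 51.5. In Map4k4 a region at 9.86 kb went up from 29.2 and 11.4 to 63.2 and 65.7. In none of these did the groups overlap.

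Dusp16, a phosphatase of JNK and p38 and also named after its values were seen, showed opposite changes along one gene. It had 18 FOXL2 regions, of which 8 were present in all 4 libraries, and 10 H3K27ac regions. Activin-only H3K27ac regions lay in its introns at 69.5, 40 and 28.9 kb, with fold enrichments of 2.84 and 3.13, 3.94 and 2.96, and 2.98 and 4.06. At 69.8 kb FOXL2 was activin-only too, at ranks of 71.7 and 74.9, with a SMAD2/3 peak in activin replicate 1 alone. Upstream of the start, at -14.3 kb, H3K27ac instead ranked lower with activin, at 86.1 and 87 before and 65.3 and 64.4 after.

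Starts of cascade genes carried acetylation and seldom FOXL2 or SMAD2/3. Within 1 kb of the deposited start, 42 members (54.5%, background 47.8%) had an H3K27ac region of both vehicle libraries and 43 (55.8%, background 47.1%) of both activin libraries, and all 42 were among the 43. When the region had to span the start itself, 26 members had one with vehicle. FOXL2 was found there at 7 members in either treatment (9.09%, background 10.5% with vehicle and 11.2% with activin), and SMAD2/3 at 0 in either (background 0.078% and 0.741%). By deposited start, acetylation with vehicle was found at 5 of the 7 Map2k genes, 4 of 4 Map4k genes, 7 of 11 other Dusp genes, 6 of 12 MAP kinases, 5 of 10 MAP kinase phosphatases and 5 of 17 Map3k genes. Some members not counted here were acetylated at a RefSeq start, as given below.

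Among deposited starts, the highest ranked acetylated one was that of Mapk8ip1, which encodes a JNK scaffold. Its ranks were 96.6 and 98.1 for vehicle against 93.7 and 95.2 for activin. Mapk6 has its RefSeq starts 11752 bp or more from the deposited one. H3K27ac over them had ranks of 94.4 and 96.9 for vehicle against 97.4 and 98.3 for activin. Scaffold genes Mapk8ip2 and Mapk8ip3 had ranks above 80 in every library as well. Among the core genes, the ERK gene Mapk3 had ranks of 58.9 and 78 for vehicle against 67.9 and 44.3 for activin, and the MEK gene Map2k2 had 82.9 and 80.6 and then 79.7 and 85.4. In both, the groups overlapped. Of 18 core members of the ERK, JNK and p38 cascades and their brakes, 9 had an acetylated deposited start in each treatment (50%, background 47.8% and 47.1%). An H3K27ac region in all 4 libraries was found at 13 (72.2%, background 61.2%) and a FOXL2 region in all 4 at 11 (61.1%, background 55.6%).

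**Figure D4:**
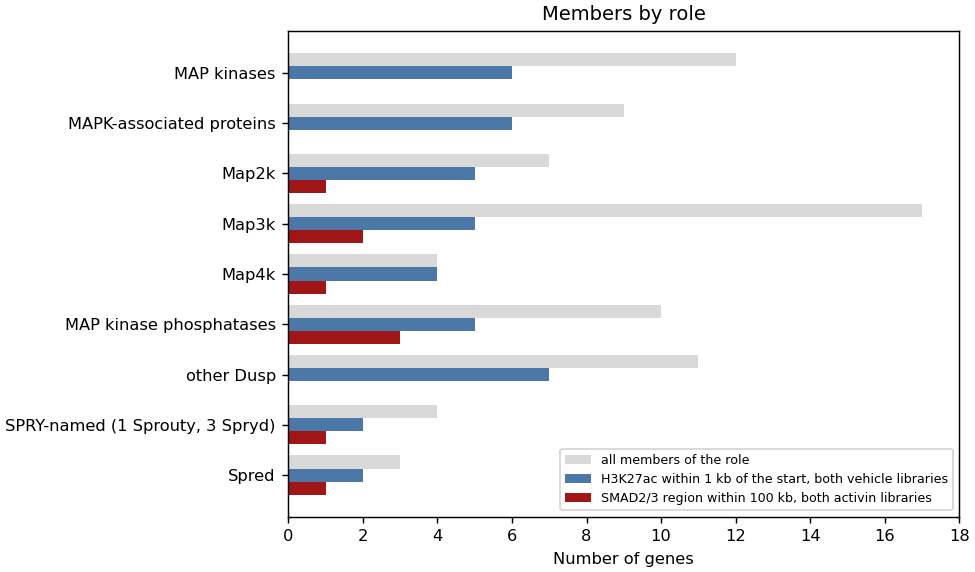
Number of member genes by role (horizontal axis, from 0): all members of the role, those with an H3K27ac region of both vehicle libraries within 1 kb of the deposited start, and those with a SMAD2/3 region of both activin libraries within 100 kb. MAP kinases and their associated proteins have acetylated deposited starts (6 of 12 and 6 of 9) and no such SMAD2/3 region, which 11.2% of all protein-coding genes have.

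The deposited annotation uses 1 start per gene, and for 20 of 59 members with a promoter in the RefSeq table it lay over 1 kb from every RefSeq start. Promoters were therefore also read from RefSeq (GRCm38.p6), as windows from 250 bases before to 50 after a start. A region of any library overlapped a promoter window of 39 of 59 members for H3K27ac (66.1%, beside 55.2% of 11328 genes), of 8 for FOXL2 (13.6%, beside 13.3%) and of 1 for SMAD2/3 (1.69%, beside 0.962%). Map3k1, Map3k7, Map3k10, Mapk6, Mapkapk2, Dusp7 and Dusp10 had no acetylated deposited start but had H3K27ac of all 4 libraries over a RefSeq window. At Map3k1 and Dusp10 the acetylated region reached only the upstream edge of the window. Others, among them Dusp6, Dusp16, Map2k4 and Map4k3, had an acetylated deposited start and no H3K27ac region over a window. For Dusp6, Map2k4 and Map4k3 a RefSeq start lies 0, 73 and 68 bp from the deposited one. There the 2 readings differ mainly in the width searched, 1 kb on either side against the narrower window. Counts of acetylated starts by role and among core genes used deposited starts only.

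The 250 bases before the start are printed for 5 members whose promoter windows the results turn on, 5′ to 3′ along the gene. They are those of Dusp6 and Dusp10, feedback phosphatases with FOXL2 over the window, of Dusp2, whose acetylated start ranked higher with activin, and of Map3k10 and Mapkap1, which have FOXL2 and a motif match in the window. Capitals mark matches on either strand to the forkhead word TGTTTAC, the FOXL2-type word GTCAAGG, the SMAD words CAGAC and GTCTAGAC or the AP-1 word TGANTCA. Matches are letters only and no evidence of binding.
Dusp6, chr10:99262981-99263230, plus strand: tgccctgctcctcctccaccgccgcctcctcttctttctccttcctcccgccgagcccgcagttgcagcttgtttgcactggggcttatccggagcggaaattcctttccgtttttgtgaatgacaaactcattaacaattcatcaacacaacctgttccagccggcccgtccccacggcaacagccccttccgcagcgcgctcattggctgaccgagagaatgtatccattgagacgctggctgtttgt
Dusp10, chr1:184034131-184034380, plus strand: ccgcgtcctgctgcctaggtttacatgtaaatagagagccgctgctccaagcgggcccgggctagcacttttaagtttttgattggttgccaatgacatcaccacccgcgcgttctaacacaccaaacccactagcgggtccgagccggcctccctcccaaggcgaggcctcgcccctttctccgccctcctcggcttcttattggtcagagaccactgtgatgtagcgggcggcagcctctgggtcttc
Dusp2, chr2:127335909-127336158, plus strand: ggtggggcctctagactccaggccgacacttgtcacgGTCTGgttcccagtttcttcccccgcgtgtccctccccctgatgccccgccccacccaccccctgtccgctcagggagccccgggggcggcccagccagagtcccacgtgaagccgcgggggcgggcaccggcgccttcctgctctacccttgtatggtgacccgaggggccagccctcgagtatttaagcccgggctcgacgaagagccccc
Map3k10, chr7:27674582-27674831, minus strand: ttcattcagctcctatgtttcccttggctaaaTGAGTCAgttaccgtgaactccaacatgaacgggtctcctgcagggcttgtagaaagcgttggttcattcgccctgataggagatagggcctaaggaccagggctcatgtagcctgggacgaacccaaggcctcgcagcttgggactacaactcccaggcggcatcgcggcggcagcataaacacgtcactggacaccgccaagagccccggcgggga
Mapkap1, chr2:34406521-34406770, plus strand: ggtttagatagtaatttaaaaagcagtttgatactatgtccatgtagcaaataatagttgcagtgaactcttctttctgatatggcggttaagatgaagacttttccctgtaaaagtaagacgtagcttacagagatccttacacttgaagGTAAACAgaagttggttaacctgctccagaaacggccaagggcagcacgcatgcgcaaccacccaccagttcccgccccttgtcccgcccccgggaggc

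Dusp6 encodes the cytoplasmic ERK phosphatase, and its FOXL2 region (chr10:99262893-99263301) covers the printed bases. Its fold enrichments were 7.47 and 7.6 with vehicle, 4.9 in activin replicate 2, and no peak was called in activin replicate 1. The printed window of Dusp6 and that of Dusp10 hold none of the words. At the Dusp10 promoter FOXL2 was called in all 4 libraries, at 5.87 and 5.59 for vehicle against 4.78 and 6.13 for activin, and H3K27ac ranked between 80.6 and 87.3. The groups overlapped for both.

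In the Dusp2 window the only match to a capitalised word was to CAGAC, at position -213, where -1 is the base before the start. The SMAD word GGCGC, counted below and not capitalised, has 2 matches there, first at -83. They overlap on opposite strands within the bases ggcgcc and so mark a single site. Map3k10, which encodes a mixed-lineage kinase of the JNK path, had the AP-1 word at -218 and a weak activin-only FOXL2 region, with fold enrichments of 2.28 and 3.31. The word lies outside that region (chr7:27674547-27674735), further upstream. Mapkap1, which encodes a subunit of the mTORC2 kinase complex, had TGTTTAC at -99 on the opposite strand, inside a FOXL2 region with 4.05 and 3.12 with vehicle, 3.32 in activin replicate 2 and no peak in activin replicate 1. These windows were chosen after their values were seen.

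Over all 59 members with a window, TGTTTAC was found in 2 (3.39%, beside 2.88% of 11328 genes), GTCAAGG in 3 (5.08%, beside 3.09%), CAGAC in 20 (33.9%, beside 45.5%), TGANTCA in 3 (5.08%, beside 6.4%), GTCTAGAC in 1 (1.69%, beside 0.221%) and the GC-rich SMAD word GGCGC, not capitalised above, in 40 (67.8%, beside 52.9%). A gene was counted when the 250 bases before any of its RefSeq starts held the word. Both strands were searched, and GTCTAGAC contains none of the other words.

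A wider list of genes of the same pathways, from receptors' adaptors and Ras regulators to ERK-activated kinases, held 59 genes, and 50 of them were in the tables. SMAD2/3 regions of both activin libraries lay near 6 (12%, background 11.2%): Nf1, which encodes neurofibromin, the Ras regulators Dab2ip and Rasal2, the Ras relative Mras, the adaptor Gab2 and the ERK-activated kinase Rps6ka2. In 5 of these (10%, background 10.4%) the gene had an activin-only region, all except Nf1. FOXL2 was found at 34 with both vehicle and 36 with both activin libraries (68% and 72%, background 60.6% and 64.8%), with activin-only regions at 12 and vehicle-only regions at 12 (24% each, background 21.6% and 10.3%). Acetylated starts were found at 23 in each treatment (46%, background 47.8% and 47.1%).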

How the data were processed

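Peak lists of 12 ChIP-seq libraries, 2 for each of 3 antibodies and 2 treatments, were used, and a Protein-A control sample was not analysed here. The submitters' processing notes name Bowtie2, MACS2, HOMER and the build GRCm38/mm10, without versions or roles. Peaks carry the authors' fold enrichment, a linear ratio, deposited −log10 p and −log10 q values, and a deposited score derived from the latter. The smallest −log10 q was 1.3 to 1.78 in the SMAD2/3 and FOXL2 lists and 1 to 1.01 in the H3K27ac lists. The nearest start, the gene type and the distance come from annotatePeaks tables, per the file headers. Peaks were deposited per library, and depth is unknown.

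For each antibody, peaks from its 4 libraries were joined where they shared at least 1 bp, and a region was a member's when any of its peaks met the rule. Percentile ranks were taken by −log10 q within each list, and fold enrichments of different lists were set side by side without a test. The test between libraries was an exact permutation test, two-sided, over 6 labellings, whose smallest p is 0.33, so that it cannot reach 0.05. Intervals are Wilson intervals at the 95% level. Background percentages are the same counts over all protein-coding genes, or over regions near them. Python 3.11.15, pandas 2.3.3, numpy 2.4.6 and scipy 1.17.1 were used, and the merging and counting were tested on simulated data.

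The members, gene lists and tests were chosen with earlier results of these data known. Genes named with values were those with the 20 highest ranked SMAD2/3 regions of both activin libraries (only 10 regions existed), those with a vehicle SMAD2/3 region, those with an activin-only FOXL2 or H3K27ac region at SMAD2/3 of both activin libraries, those with a vehicle-only H3K27ac region of −log10 q of 5 or more in both vehicle libraries (none), and 21 core genes. Alternatives were a window of 10 kb, a −log10 q of at least 5, an overlap of 50%, lists of equal length, ranks by fold enrichment, other promoter definitions and leaving out each library. The RefSeq promoter windows and the class of SMAD2/3 regions in a single activin library were added after the data were seen.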

Additional observations from a re-analysis of the deposited data

How the results depend on the processing

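Of 118 values over all settings, 86 kept their direction (differences between treatments, whatever their size) or stayed within the error or 1.5 times of the reported value (counts and shares), 27 moved and 5 reversed. The 86 include the values with a replicate block, whose mean difference equals the reported one by construction and could not have moved. The FOXL2 share difference, reported as 0.0212 percentage points, was 0.00315 with a 10 kb window and ran from 0.000681 to 0.0418 over the left-out libraries. The difference in the members' share of SMAD2/3 peaks, reported as -0.502 percentage points, was 0.121 with a 10 kb window and 0.13 and -1.13 without vehicle replicate 2 and 1. The H3K27ac log2 difference came to -0.00794 for peaks of −log10 q 5 or more and to -0.0224 to 0.26 over the left-out libraries, the lowest without vehicle replicate 2, and its share difference ran from -0.00569 to 0.0814 in the same way. Within 10 kb of a deposited start there were 0 activin-only SMAD2/3 regions and 0 members with a SMAD2/3 region of both activin libraries. Activin-only and vehicle-only regions there numbered 6 and 1 for FOXL2, and 3 and 0 for H3K27ac. The SMAD2/3 log2 difference could not be had there, since the vehicle lists held no member peak. At a −log10 q of at least 5, vehicle-only FOXL2 regions numbered 5, and activin-only and vehicle-only H3K27ac regions 1 and 0. With lists of equal length (144 SMAD2/3 peaks), activin-only SMAD2/3 regions numbered 0 and vehicle-only FOXL2 regions 16. With an overlap of 50% vehicle-only H3K27ac regions numbered 1. Acetylated starts numbered 26 when the region had to span the start, 32 at a −log10 q of at least 5 and 34 over RefSeq windows. Leaving out each library in turn gave 9 to 19 activin-only SMAD2/3 regions and 10 to 17 members with SMAD2/3, the highest of both without activin replicate 2. It gave 43 to 51 activin-only FOXL2 regions (highest without vehicle replicate 1 or activin replicate 1) and 14 to 30 vehicle-only ones (30 without vehicle replicate 1, 23 without activin replicate 2, 19 without vehicle replicate 2). For H3K27ac it gave 9 to 28 activin-only regions (28 without activin replicate 2, 17 without activin replicate 1, 14 without vehicle replicate 1) and 6 to 13 vehicle-only ones (13 without vehicle replicate 2, 10 without vehicle replicate 1, 7 without activin replicate 1). Of FOXL2 regions at SMAD2/3, 83.3% to 100% ranked higher with activin, all of them without vehicle replicate 1. With 1 library in a group, presence there needs only 1 peak. The cause of the other changes was not tested. Replicate numbers do not pair the samples by the labels, and deviations of same-numbered libraries correlated at -0.0443 for SMAD2/3, 0.132 for FOXL2 and -0.0281 for H3K27ac. With a replicate block the SMAD2/3 log2 difference was necessarily again 3.95 (4.32 and 3.59 in the pairs, exact permutation p = 0.5, the smallest possible). The pairs differed in sign for the H3K27ac log2 difference (-0.0337 and 0.27). They also did for the share differences of FOXL2 (-0.00736 and 0.0498) and SMAD2/3 (0.194 and -1.2). Unknown depth limits every count of absent peaks.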

Other observations

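Assignment to the nearest start moved some sites away from the cascade genes. At a RefSeq promoter of Map4k1, which encodes a kinase of blood cells, FOXL2 was called in all 4 libraries, with fold enrichments of 4.33 and 3.27 for vehicle against 3.26 and 5.65 for activin, and a SMAD2/3 peak was called in vehicle replicate 1 alone, at 2.35. The tables assign both to a neighbouring gene, so that neither is among the 22 SMAD2/3 and 303 FOXL2 regions of members, while both entered the counts made by position over promoters. Of the 22 SMAD2/3 regions of members, 13 lay in the member gene, 2 in another gene and 7 between genes; for FOXL2 the counts were 181, 49 and 73. The farthest peak inside the window lay at 94.9 kb and the nearest outside at 101 kb from the start, and 49 peaks assigned to members were outside, beside 1407 inside.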
